A study of Macaca mulatta with 22 samples.

Results

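Zinc finger genes of the C2H2 type form the largest family of transcription factors in primates. Each finger folds around a zinc ion and reads a few bases of DNA, and many members carry long arrays of fingers encoded in one long exon. Proteins named ZBTB carry a BTB domain, which pairs the proteins and recruits corepressors such as NCOR1. Many ZNF and ZKSCAN proteins carry a KRAB domain, which recruits TRIM28 and the chromatin modifiers bound to it. N6-methyladenosine (m6A) is a modified base of mRNA that reader proteins bind and that affects splicing, stability and translation. It is known to be frequent in long exons and around stop codons.

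The genes described here are those with an m6A peak whose symbol begins with ZNF, ZBTB, ZSCAN or ZKSCAN followed by a digit. There were 80 of them among 3653 genes with a peak, counting each symbol once (3671 gene identifiers). They held 213 of 10069 peaks, or 2.12%. The rule reads the name alone, so not every member has been shown to bind DNA.

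Peaks came from antibody enrichment of m6A-bearing RNA fragments from the prefrontal cortex of 11 rhesus macaques (Macaca mulatta) at postnatal day 35. The 6 control animals were the males A and B and the females C, C1, C2 and C3. The 5 treated animals were the males D and S1 and the females F, S2 and S3, and had breathed sevoflurane, an inhaled general anaesthetic, at about 2.5 to 3% for 4 h on about postnatal days 7, 21 and 35. What the controls breathed is not given in the sources used here, so handling, gas and anaesthesia cannot be told apart. The question for these genes is which of them carry m6A peaks in infant cortex, and whether repeated anaesthesia alters that set.

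Each animal has 1 list of peaks, and a gene was scored as having a peak or not in each animal. Read totals are not part of the lists, so the depth is unknown. No RNA level was compared, so a peak present in one animal and not in another need not be a change in methylation, and fewer cells of a type and less RNA per cell cannot be told apart. Of 13 neuron markers 5 had a peak, among them NEFM, a neurofilament subunit, in 6 of 6 controls and 5 of 5 treated animals. RBFOX3, the neuronal marker NeuN, had one in 4 controls and 3 treated animals. For astrocytes 2 of 7 markers had a peak, for oligodendrocytes 3 of 8, for microglia 1 of 7 and for endothelium 0 of 5. The erythrocyte marker HBA had one in 2 treated animals and in no control, and muscle, skin and liver markers had none.

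Zinc finger genes with a peak were more numerous in the treated animals, in proportion to longer lists. The controls held 16 in A, 14 in B, 5 in C, 3 in C1, 18 in C2 and 20 in C3. The treated animals held 22 in D, 10 in S1, 24 in F, 29 in S2 and 23 in S3. The groups overlapped, since S1 lay below 4 of the 6 controls. Group means were 12.7 ± 7.03 in controls (SD, n = 6) and 21.6 ± 7.02 in treated animals (SD, n = 5), a ratio of 1.71. All genes with a peak numbered 598 ± 235 per control animal (SD, n = 6) and 1041 ± 221 per treated animal (SD, n = 5), 1.74 times as many.

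As a share of an animal's genes with a peak, zinc finger genes made up 2.04 ± 0.939% in controls (SD, n = 6) and 2.03 ± 0.384% in treated animals (SD, n = 5). The difference of -0.0143 percentage points was far smaller than the spread in either group. The control shares were 2.87% in A, 2.81% in B, 1.11% in C, 0.752% in C1, 2.81% in C2 and 1.91% in C3. The treated shares ran from 1.37% in S1 to 2.34% in F. The lowest shares, in C1 and C, were those of the shortest lists, with 399 and 449 genes. Within the 5 animals with single-letter names the treated mean lay 11.3 genes above the control mean, and within the 6 with numbered names 7 genes above it. The difference was 13.8 genes among females but 1 gene among males, where S1 had fewer members than both controls. In shares, treated males lay 1.05 percentage points below control males and treated females 0.544 above control females. The sex difference was not tested, with 2 males in each group.

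**Figure D1:**
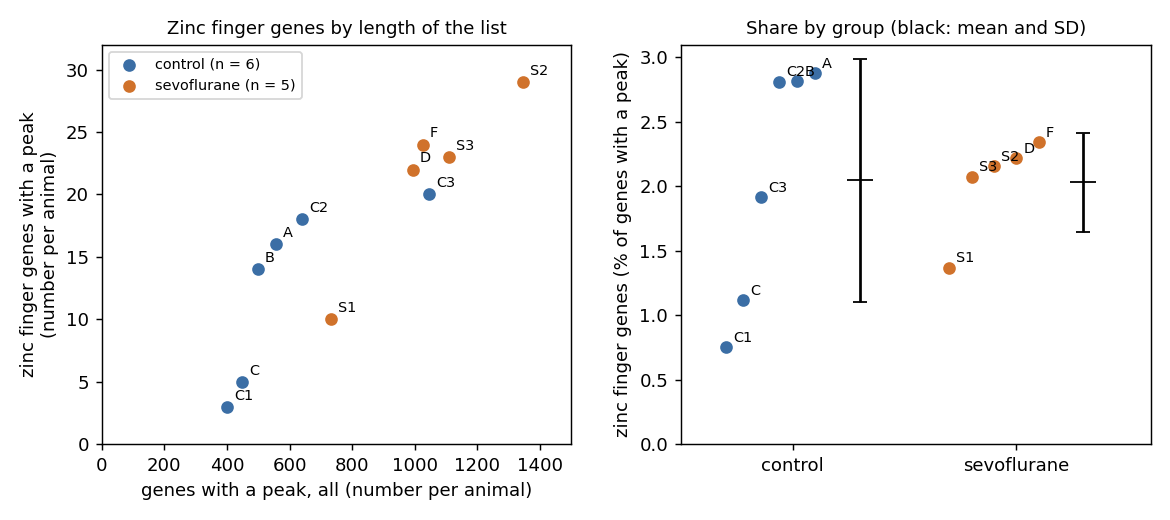
Left, the number of zinc finger genes with a peak in each animal against the number of all genes with a peak in it. Right, the same as a percentage, with points for animals and black bars for the group mean and SD. The shares of the groups overlap, with means of 2.04% and 2.03%.

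Most members were found in a single animal. A peak was present in 1 animal for 51 of the 80 (63.8%), against 55.8% of all genes with a peak. Another 11 members had peaks in 2 animals, and 15 had them in at least 5. Only ZBTB47 had one in all 11, or 1.25% of members against 2.22% of all genes. ZBTB4 followed with 10 animals, ZNF710 with 9 and ZNF512B with 8. ZNF445, ZNF768 and ZBTB10 had a peak in 7 animals, ZNF106 and ZNF326 in 6, and ZNF48, ZNF423, ZNF462, ZNF609, ZBTB16 and ZBTB22 in 5. ZNF148 had one in 4, and ZNF471 and ZNF717 in 3. The members found in 2 animals were ZBTB7C, ZNF34, ZNF331, ZNF407, ZNF518B, ZNF532, ZNF608, ZNF641, ZNF646, ZNF658 and ZNF821.

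**Figure D2:**
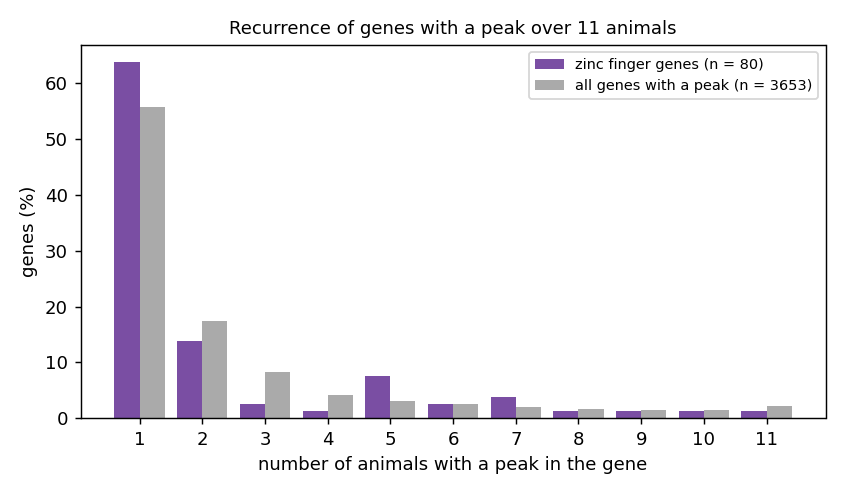
Percentage of genes by the number of animals in which they had a peak, for the 80 zinc finger genes and for all 3653 genes with a peak. Members found in 1 animal make up 63.8% and all genes 55.8%.

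The names split by family. Of 42 ZBTB symbols in the table of macaque gene names 9 had a peak (21.4%), and of 394 ZNF symbols 65 (16.5%). A further 3 ZNF members had symbols that this table lacks. For ZSCAN the count was 1 of 19 and for ZKSCAN 2 of 7. Over all symbols in the table it was 18.8%. Of the 9 ZBTB members 5 had a peak in at least 5 animals, against 10 of the 68 ZNF members. Each animal held on average 3 ± 1.10 ZBTB members in controls (SD, n = 6) and 5 ± 1.87 in treated animals (SD, n = 5).

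ZBTB47, a BTB zinc finger gene, was the most constant member and the most enriched. The authors' fold enrichment of its strongest peak was 97.2 in A, 103 in B, 83.8 in C, 53.2 in C1, 60.5 in C2 and 143 in C3. In treated animals it was 54.1 in D, 46.4 in S1, 172 in F, 128 in S2 and 133 in S3. These values rank peaks within a list and are not compared between animals. Ranked among the genes of each list, ZBTB47 stood at percentiles of 94.7 to 99.8, with a median of 98.7. All 11 animals shared one region, chr2:99968189-99968967 (rheMac8, minus strand). It lay 44.7% of the way along the annotated gene, which runs from 99960341 to 99975244, and its exonic blocks covered 779 bases. C2 and S1 each held 1 further peak of their own in the gene.

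ZBTB4 encodes a BTB protein that binds methylated CpG sites. It had peaks in all animals but A, at 2 regions of chromosome 16 (minus strand), both close to its 3' end. The region farther from the end, chr16:7440475-7440832, was present in all 10 of these animals, 5 controls and 5 treated. Its peaks had fold enrichments of 3.85 to 4.8 in controls and of 4.19 to 8.71 after sevoflurane. The region nearer to the end, chr16:7439819-7440087, lay from 298 to 566 bases upstream of the annotated 3' end. It was present in D, S1, F, S2 and S3, and among controls only in C. Its fold enrichment was 32.9 in C, 24.2 in D, 41.9 in S1, 20.4 in F, 61.7 in S2 and 8.15 in S3. Within each of the 6 animals that held both, the peak nearer to the end had the larger fold enrichment. By the authors' p-value the order was reversed in D, S1, F, S2 and S3, where the farther peak had the smaller value, but not in C. The nearer peak's fold enrichment was a value held by 13 genes of the list in C, 32 in D, 21 in S1 and 30 in F.

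**Figure D3:**
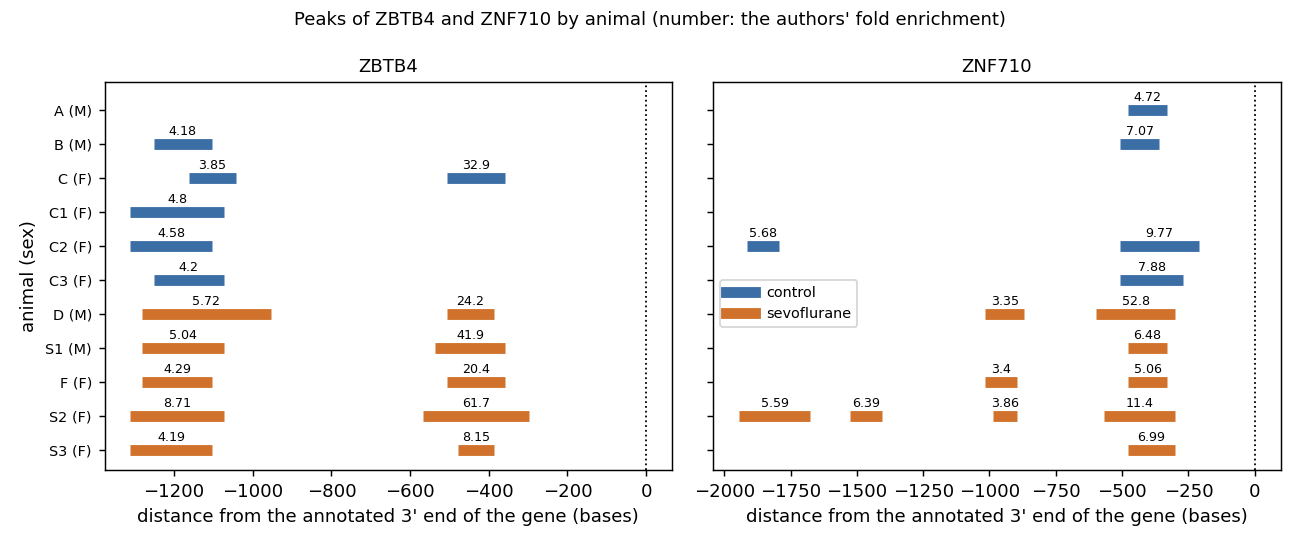
Peaks of ZBTB4 (left) and ZNF710 (right) in each animal, as distance in bases from the annotated 3' end of the gene (dotted line). Numbers above the bars are the authors' fold enrichments. The ZBTB4 region nearer to the 3' end is seen in C and in all 5 treated animals, and the ZNF710 peaks between 868 and 1017 bases from the end in D, F and S2.

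The other ZBTB genes with peaks in 2 or more animals each had a region that all these animals shared. ZBTB10 had chr8:78737704-78738033 (plus strand) in A, B and C2 and in D, F, S2 and S3, with fold enrichments of 9.72, 10.6 and 8.83 in the controls. In the treated animals they were 5.03, 14.2, 44.7 and 29.7. This region lay 5.60% of the way along the gene, and C, C1, C3 and S1 lacked it.

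ZBTB16, the repressor PLZF that is fused to the retinoic acid receptor in a form of leukaemia, had chr14:106936297-106936536 (plus strand) in C2 and in D, F, S2 and S3. The fold enrichment there was 5.3 in C2, 3.14 in D, 9.64 in F, 12.3 in S2 and 5.08 in S3, and C2 had a stronger peak of 14.2 at another site of the gene. ZBTB22 had chr4:34159872-34160200 (minus strand) in C3 and in D, F, S2 and S3, in the middle of a gene of 3319 bases. The fold enrichment there was 24.1 in C3, 18.7 in D, 25 in F, 13.5 in S2 and 31.4 in S3. C3 and S2 had stronger peaks elsewhere in the gene, at 28.7 and 25.6, and by its strongest peak the gene stood at a median percentile of 86.1. Both genes were thus present in 4 of 5 treated animals and 1 of 6 controls, and absent from S1. ZBTB7C, a relative of the repressor ZBTB7A, had chr18:36951809-36952019 (minus strand) in C3 and F, with 9.05 and 10.2. ZBTB14 (in B), ZBTB32 (in F) and ZBTB45 (in S2) had a peak in 1 animal each.

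Among the ZNF genes, ZNF710 had a peak in A, B, C2 and C3 and in all 5 treated animals. All 9 shared chr7:68129981-68130370 (plus strand), which ended 209 bases before the annotated 3' end. Its strongest peak had a fold enrichment of 4.72 in A, 7.07 in B, 9.77 in C2 and 7.88 in C3. In treated animals it was 52.8 in D, 6.48 in S1, 5.06 in F, 11.4 in S2 and 6.99 in S3. The value in D stood at the 96.4 percentile of its list, the highest of the 9. A second region, chr7:68129562-68129711, was present in D, F and S2 and in no control, at 3.35, 3.4 and 3.86. S2 alone held 4 separate peaks in the gene.

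ZNF512B, a gene associated with amyotrophic lateral sclerosis, had a peak in A, C2 and C3 and in all 5 treated animals. All 8 shared chr10:329813-330082 (plus strand), 92.3% of the way along the gene. The fold enrichment was 31.1 in A, 20.8 in C2 and 37.7 in C3. In treated animals it was 10.4 in D, 41.9 in S1, 45.4 in F, 23.4 in S2 and 15.7 in S3. Its median percentile of 84.2 was the highest after ZBTB47 among members found in at least 6 animals.

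ZNF326, a subunit of the DBIRD complex that links transcript elongation to splicing, had one region in A, B, C2, D, F and S3. It spanned chr1:90207310-90212568 (plus strand, 2 exonic blocks with the intron between them) and ended 177 bases before the annotated 3' end. The fold enrichment was 17.5 in A, 24.8 in B and 26.5 in C2, and 24.2 in D, 25 in F and 3.79 in S3. Only S3 stood low, at a percentile of 33.1 in its list, while the other 5 lay between 72.2 and 86.8.

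ZNF768 had peaks in A, B and C2 and in D, F, S2 and S3, but these cannot be assigned to it alone. All 8 of its peaks carried ITGAL, a leukocyte integrin gene, in the lists' annotation. In 6 animals an ITGAL peak on the opposite strand overlapped the ZNF768 peak with an identical fold enrichment, namely 27.2 in A, 42.4 in B, 22.7 in C2, 24.2 in D, 17 in S2 and 14 in S3. Only the peak of F had no ITGAL counterpart. Over the whole series 51 pairs of overlapping peaks on opposite strands were found, 20 of them with equal fold enrichment. Reads from the 2 genes cannot be told apart here, although the libraries are described as stranded.

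The remaining members found in 4 to 7 animals were picked out after their values were seen. ZNF445, which maintains imprinted methylation, had a region at chr2:98148026-98148295 (plus strand) in B, C2, D, S1 and S3, and peaks closer to the 3' end in A, C2 and C3. No treated animal had a peak at those nearer sites. ZNF462, a gene of neural development, had chr15:32692071-32692251 (minus strand) in C, C2 and S3, within 1 kb of its annotated start. ZNF423, a partner of SMAD proteins in BMP signalling, had one region spread over several exons, chr20:33636400-33728588 (minus strand), in C2, C3, D, F and S2. ZNF609, which acts in cortical development, had regions near its annotated start on chromosome 7 in C2, C3, D, F and S3, at 2.6 to 5.28. ZNF148, a GC-box binding factor, had chr2:46594092-46594481 (minus strand) in C2, C3, S1 and F, with 41.6, 10.6, 41.9 and 25. ZNF48 had chr20:27999190-27999400 (plus strand) in C, D, S2 and S3, and another site in B. ZNF106, an RNA-binding protein despite its name, stood lowest, at percentiles of 4.4 to 15.1 in its 6 animals, and its peaks lay in 4 separate regions.

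**Figure D4:**
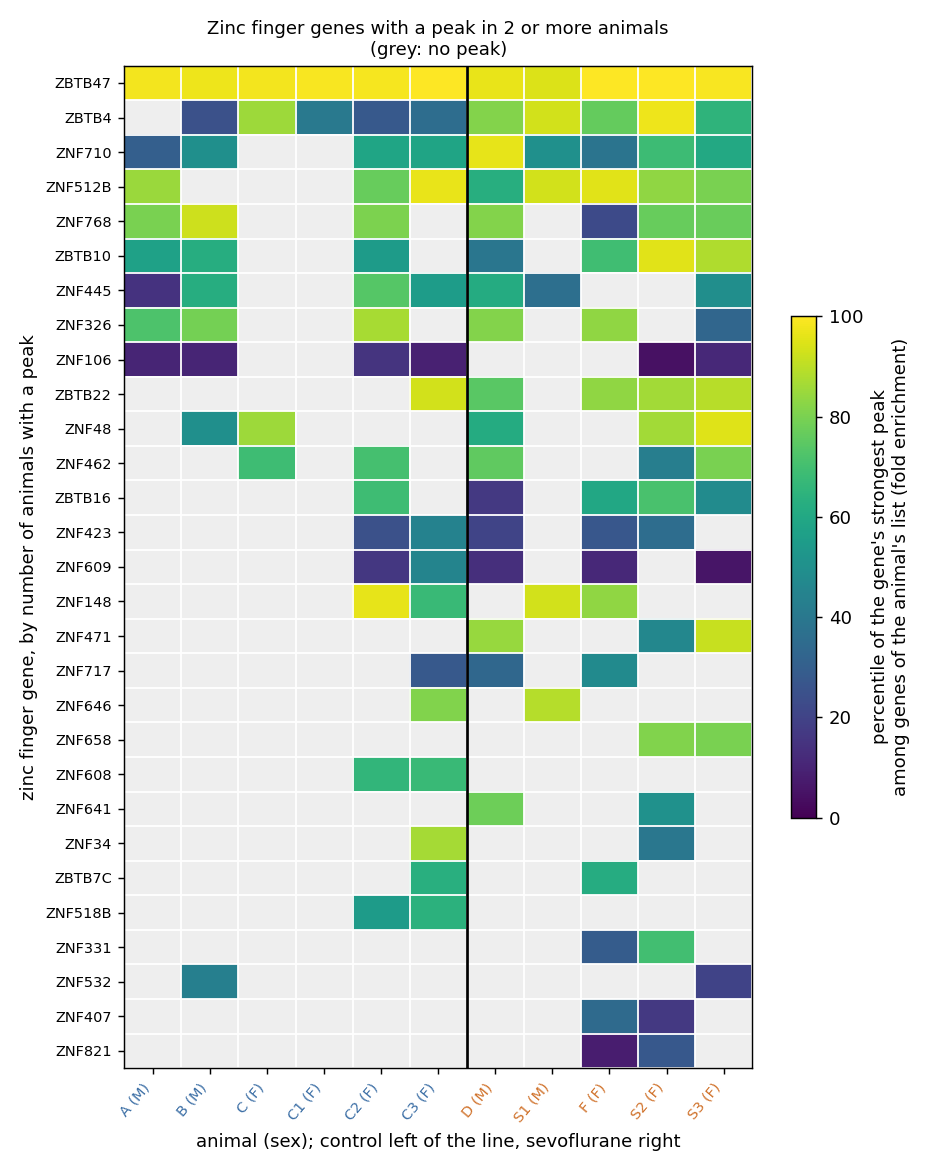
The 29 zinc finger genes with a peak in 2 or more animals (rows) by animal (columns, controls left of the line). Colour gives the percentile of the gene's strongest peak among the genes of that animal's list, by the authors' fold enrichment, and grey marks no peak. ZBTB47 is filled in every column at percentiles of 94.7 to 99.8, and C and C1 hold the fewest filled cells.

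Animals that shared a gene often shared the site. Of the 29 members found in 2 or more animals, 13 had 1 region present in every animal with a peak in the gene. For 8 the commonest region was in 1 animal only. Of the 15 members in at least 5 animals, 9 had such a common region. Joining all overlapping peaks gave 113 regions in the 80 genes, 84 of them in a single animal.

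The strength of members within a list was above its middle in most animals. Ranked by the strongest peak of each gene, the median member stood at a percentile of 65.9 ± 13.9 (SD, n = 11), from 40.6 in C1 to 90.9 in S1. In S1, 5 of its 10 members were in the top 10% of the list. Many values were shared exactly: 42.4% of the 184 member values in the lists, against 30.2% of all gene values, were held by at least 10 genes of the same list. In S1 the value of 41.9 was held by 21 genes, ZBTB4, ZNF148, ZNF512B and ZNF787 among them. The order among such genes is therefore tied, and the part that this plays in the percentiles was not tested.

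Zinc finger peaks more often lay near the 3' end than peaks of other genes, in 10 of 11 animals. Over animals, 52.1 ± 11.1% of member peaks (SD, n = 11) had their midpoint in the last 20% of the annotated gene span, introns included. For peaks of other genes it was 37.3 ± 2.00% (SD, n = 11). The exception was B, with 38.5% against 40.0%. It was 66.7% in A, C and C1, but C and C1 had 6 and 3 peaks. By group it was 54.8 ± 13.3% in controls (SD, n = 6) and 48.8 ± 7.88% in treated animals (SD, n = 5), which overlapped. The first 20% of the span held 23.2 ± 12.9% of member peaks and 24.6 ± 3.34% of the others (SD, n = 11 each). Pooled over animals, 2.93% of member peaks lay between 20 and 40% of the span, against 9.57% of other peaks. The last 20% held 48.8% of pooled member peaks and 37.4% of other peaks. With each region counted once, it held 45.0% of member regions and 36.1% of those of other genes. Both gaps are smaller than that of the means over animals.

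Member peaks also lay more often within a single exonic block. That share was 89.7 ± 7.45% for members and 65.3 ± 7.19% for other genes (SD, n = 11 each), and it was higher for members in 11 of 11 animals. The mean difference was 24.5 ± 7.72 percentage points (SD, n = 11). By group it was 88.9 ± 9.97% in controls (SD, n = 6) and 90.8 ± 3.45% in treated animals (SD, n = 5). The exonic length of the peaks was alike, with a median of 149 bases for members and 150 for other genes over all animals. No test was made of either difference, since a region found in several animals is counted again in each of them.

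**Figure D5:**
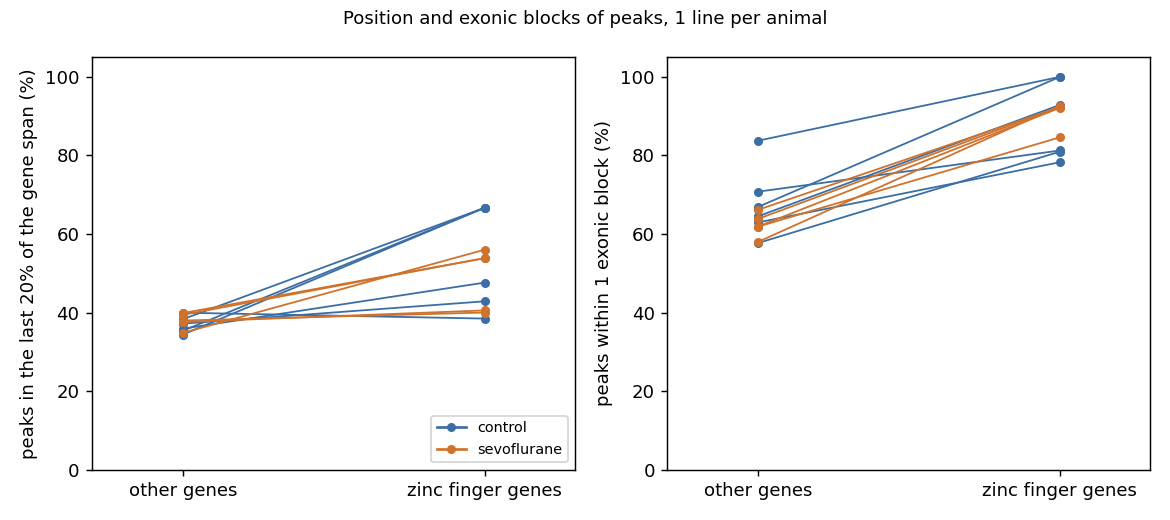
Percentage of peaks in the last 20% of the gene span (left) and within 1 exonic block (right), for other genes and zinc finger genes, with 1 line per animal. All lines rise on the right, and on the left all but that of B, a control.

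Among the 29 recurrent members the commonest region mostly fell at either end of the gene. It lay in the first 20% of the span for 10 genes, among them ZBTB10, ZBTB16, ZNF148, ZNF423, ZNF462 and ZNF609. It lay in the last 20% for 12, among them ZBTB4, ZNF326, ZNF445, ZNF512B and ZNF710, and between for 6, including ZBTB47 and ZBTB22. ZNF768 could not be placed. Where regions were tied in number of animals, the one with the lowest coordinate was taken. This applied to the 8 genes without a shared region, such as ZNF608, which had 1 peak near each end. The same count was not made for other genes.

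Chromosome 19, which carries the largest clusters of KRAB zinc finger genes in primates, held 20 of the 80 members. They made up 7.75% of its 258 genes with a peak, against 1.77% on the other chromosomes together. Chromosome 18 had a higher share, with 4 of 45 genes (8.89%), and chromosomes 8 and 20 had 5.26% and 5%. Their peaks were rarely shared: 18 of 20 (90%) were found in 1 animal, against 33 of 60 members elsewhere (55%) and 49.6% of all chromosome 19 genes. The 2 exceptions were ZNF471, in D, S2 and S3, and ZNF331, in F and S2. The 18 were ZBTB32, ZBTB45, ZNF71, ZNF77, ZNF160, ZNF221, ZNF224, ZNF227, ZNF304, ZNF320, ZNF350, ZNF444, ZNF507, ZNF555, ZNF559, ZNF671, ZNF787 and ZNF793. Clustered zinc finger genes are near copies of each other, and how reads that match several copies were treated is not given in the sources used here. The lists name ZNF304 as ZNF548 and ZNF224 as ZNF230, so these 2 identities are uncertain.

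The other members found in 1 animal were spread over chromosomes. In controls these were ZNF12, ZNF26, ZNF252, ZNF425, ZNF451 and ZNF664 in A, ZBTB14 and ZNF251 in B, and ZNF41 in C. ZKSCAN1 was found in C1, ZNF454 in C2, and ZNF483, ZNF655 and ZNF852 in C3. In treated animals these were ZNF33B, ZNF189 and ZNF746 in D, ZNF510 and ZNF704 in S1, and ZNF7, ZNF205, ZNF436 and ZNF711 in F. S2 held ZKSCAN8, ZSCAN12, ZNF292, ZNF394, ZNF512, ZNF668 and ZNF692, and S3 held ZNF84, ZNF644 and ZNF777. Their percentiles, with those on chromosome 19, ran from 4.16 (ZNF512, 2.5-fold) to 93.5 (ZNF454, 34.1-fold). Of the 51 members found in 1 animal 20 came from controls and 31 from treated animals (60.8%), against 63.4% for all such genes.

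By group, 21 members had a peak in both (26.2%), 22 in controls only (27.5%) and 37 in treated animals only (46.2%). Among all genes with a peak 32.3% were found in both, 22.7% in controls only and 45.0% in treated animals only. The 27 members present in 2 to 9 animals entered Fisher's exact test over all 1482 such genes; 51 were under that filter and 2 above it. At an unadjusted p under 0.05, 0 of the 27 were more often present after sevoflurane and 0 in controls. With these group sizes a gene present in 2, 3, 8 or 9 animals cannot come under 0.05, however its animals are split. That held for 11, 2, 1 and 1 of the members, whose outcome was fixed in advance. The background was 1.82% of all genes tested after sevoflurane, 27 genes, and none in controls. With Benjamini-Hochberg adjustment 0 members and 0 genes passed, the smallest adjusted p being 0.606. The filtered members had the peak more often after sevoflurane in 23 of 27 cases (85.2%), against 83.2% of all genes tested. Their median difference was 26.7 percentage points of animals, and that of all genes 23.3.

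The member with the smallest p was ZNF471, a KRAB zinc finger gene, present in 3 of 5 treated animals and in 0 of 6 controls, with an exact Fisher p of 0.0606 (adjusted p = 0.606). No gene in 3 animals can have a lower p with these group sizes. Its strongest peak had fold enrichments of 26.4 in D, 5.86 in S2 and 34.9 in S3. No region was common to the 3: D and S2 shared chr19:52672828-52673008 and D and S3 chr19:52673098-52673308 (minus strand). ZBTB16 and ZBTB22, with 1 of 6 and 4 of 5, followed (Fisher's exact p = 0.0801 for each, adjusted p = 0.606). Without S1, all 3 genes came under 0.05 (exact p = 0.0333 for ZNF471 and 0.0476 for the others). Without C2 this held for ZBTB16, without C3 for ZBTB22 and without F for ZNF471. With lists of equal length the difference for ZNF471 was 0 in place of 60 percentage points of animals (exact p = 1), and that for ZBTB16 was 23.3 in place of 63.3 (exact p = 0.545). ZBTB22 stayed at 63.3. With peaks of p at most 1e-05 ZNF471 had 40 (exact p = 0.182) and ZBTB16 23.3, and with the exon class alone they had 20 and 0. All peaks of ZBTB16 carry the 3' UTR class in the lists, so its 0 was fixed by that filter. ZNF512B had 3 of 6 and 5 of 5 (exact p = 0.182), and ZNF710 4 of 6 and 5 of 5 (exact p = 0.455).

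Another 5 genes were present in 2 of 5 treated animals and in 0 of 6 controls (exact Fisher p = 0.182 each, the lowest that 2 animals allow). In ZNF641 (D and S2) and ZNF821 (F and S2) both animals had the same region, at chr11:46616466-46618510 (minus strand) and chr20:56912638-56912844 (plus strand). In ZNF331 (F and S2), an imprinted gene in humans, ZNF407 (F and S2) and ZNF658 (S2 and S3) the sites differed. In S3 the lists give ZNF658 3 overlapping peaks with one fold enrichment of 15.7. In the other direction ZNF518B and ZNF608, the paralogue of ZNF609, were present in 2 of 6 controls (C2 and C3) and in 0 of 5 treated animals (exact Fisher p = 0.455), at different sites in each animal.

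By region the picture was the same but for ZBTB4. Of 1265 regions tested, 27 of them in members, 19 were under an unadjusted p of 0.05 after sevoflurane (1.5%) and 0 in controls. The limit that the number of animals sets on the p of a gene held for regions too. Of the 19, 1 lay in a member: the ZBTB4 region nearer to the 3' end, present in 5 of 5 treated animals and in 1 of 6 controls (exact Fisher p = 0.0152, adjusted p = 0.610). A single call among 27 regions says nothing about the members as a group, and the region did not pass the adjustment. Keeping in every list only as many peaks as the shortest one holds (452, those of lowest p), the difference was 63.3 percentage points of animals (exact p = 0.0801). The ZBTB22 region in the middle of the gene then came under 0.05 in its place, with 0 of 6 controls and 4 of 5 treated animals (exact p = 0.0152, adjusted p = 1). The treated animals had the longer lists, and beyond that setting the part of list length in this difference was not tested.

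When lists were made equally long, members were no more numerous after sevoflurane. With peaks of p at most 1e-05 in lists of their own length, the means were 8 ± 3.69 in controls (SD, n = 6) and 11.2 ± 3.11 in treated animals (SD, n = 5), a difference of 3.2 members against 8.93 with all peaks. With equal lengths the counts were 7.67 ± 3.93 in controls (SD, n = 6) and 6.4 ± 1.52 in treated animals (SD, n = 5), from 29 members in all. ZBTB47 and ZBTB4 kept a peak in every animal that had one, ZNF710 in 4 controls and 5 treated animals, and ZBTB22 in 1 and 4. ZNF326 was left in 3 controls and 0 treated animals.

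Genes of the corepressor machinery that BTB and KRAB proteins recruit also had peaks. Of 27 listed, 13 had one, with 2.5 ± 1.64 per control (SD, n = 6) and 5 ± 1.41 per treated animal (SD, n = 5). Over all symbols in the table of gene names 18.8% had a peak, and treated animals had 1.74 times as many genes with a peak. The share of this list in each animal's genes was not computed. Of the 5 tested 0 were under an unadjusted Fisher's exact p of 0.05, while 1.82% of all genes tested were, all of them higher after sevoflurane. Genes in 2 or 8 animals, CHD4 among them, could not come under it. CHD3, an ATPase of the NuRD complex, had a peak in 6 of 6 and 5 of 5, and its relative CHD4 in 3 of 6 and 5 of 5 (exact p = 0.182). NCOR1, a nuclear receptor corepressor, had 1 of 6 and 3 of 5 (exact p = 0.242). TRIM28, the corepressor of KRAB proteins, had no peak in any animal.

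C2H2 factors outside the naming rule were counted from a separate list. Of 95 listed, 27 had a peak, with 2.5 ± 1.38 per control (SD, n = 6) and 7 ± 2.45 per treated animal (SD, n = 5), 1 to 4 against 4 to 10. Against this, 18.8% of all symbols had a peak, and treated animals had 1.74 times as many genes with a peak. The share of this list in each animal's genes is not given, and its difference was not tested. Of the 12 tested 0 were under an unadjusted Fisher's exact p of 0.05, while 1.82% of all genes tested were. All of the 12 but ZFHX3 and HIVEP2 were present in 2 or 3 animals, and so could not come under it. ZFX, an X-linked activator, and ZFHX2, a homeobox zinc finger gene, each had 0 of 6 and 3 of 5 (Fisher's exact p = 0.0606). ZFHX3 had 1 of 6 and 3 of 5 (exact p = 0.242). HIVEP2, a gene of intellectual disability, had 3 of 6 and 4 of 5, PEG3, an imprinted gene, 1 of 6 and 2 of 5 (exact p = 0.545 each), and ZEB1, a repressor of epithelial genes, 2 of 6 and 1 of 5 (exact p = 1).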

How the data were processed

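Immunoprecipitated libraries of 11 macaques were used; the 11 input libraries were not analysed here. The submitters' processing notes name HISAT2 2.1.0, Trim Galore 0.5.0, StringTie, cutadapt and the assembly rheMac8. The sources used here give neither the peak caller nor its background or strand setting. Each row of the deposited lists is 1 peak of 1 animal with a p-value computed by the authors. Per the file headers, 2 columns hold log10 values of a p and a false discovery rate, deposited as negative scores. The fold enrichment is a ratio computed by the authors and served only to describe and rank peaks within a list. The largest p-value in the lists was 0.001 and the lowest fold enrichment 2.06. Depth is unknown, so no counting interval was computed, and the number of animals limits the precision.

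Genes were matched by unversioned identifier, 71 members through the supplied names table and 9 through the lists. For ZKSCAN8, ZNF33B, ZNF252, ZNF304 and ZNF224 the lists give another symbol. Presence of a peak was tested with a two-sided Fisher's exact test (scipy 1.17.1) for genes in 2 to 9 animals, with Benjamini-Hochberg adjustment over all genes tested. The test was tested on simulated lists. Counts and shares over members were given no p. Regions join peaks whose exonic blocks overlap by at least 1 bp on one strand, and printed starts count from 1. Position is the peak's midpoint on the span of the gene's annotated transcripts. UTR classes of the lists were not used to place peaks, and entered only through the setting that keeps the exon class alone. No sequences are printed, since no genome of the files' build was used here.

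The members, lists and tests were chosen with earlier results of these data known. Named genes were members in at least 9 animals, up to 10 per direction by Fisher's p with a difference of at least 1/3 of animals, every ZBTB, ZSCAN or ZKSCAN member in at least 2 animals, and the 5 members in at least 6 animals with the highest median percentile. Other listed genes were named if found in at least 3 animals. One listed gene that this rule takes is not reported here. The region test, the left-out ZNF768 and the ZBTB4 region were chosen after seeing the data. Alternatives were a p of at most 1e-05 per peak, lists of equal length, autosomes, the exon class, the gene of the annotation column, no filter, 50% reciprocal overlap, added C2H2 factors, strata by sex and naming, a replicate block and leaving out each animal.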

Additional observations from a re-analysis of the deposited data

Results flagged for a closer look

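The sevoflurane male S1 stood apart from the other 4 treated animals in 2 measures of the zinc finger genes, by Dixon's criterion at 95%. Zinc finger genes made up 1.37% of its genes with a peak, while D, F, S2 and S3 lay between 2.07% and 2.34%. Of its zinc finger peaks 84.6% lay in a single exonic block, against 92.1% to 92.6% in the other 4. S1 had 10 members and 13 member peaks, the fewest of the treated animals. Only its peaks of ZNF510 and ZNF704 lay in more than 1 block, so the second flag rests on few peaks. In all 10 group-wise sets of values were examined in this way, and chance flags about 1 in 20.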

How the results depend on the processing

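Depth is unknown, so a gene with no peak in an animal has no stated detection limit. With a peak p of at most 1e-05, 1 member (ZBTB10, 0 of 6 against 4 of 5, Fisher's exact p = 0.0152), 10 genes and 2 member regions came under an unadjusted p of 0.05. The difference in members per animal was then 3.2. With lists of equal length the treated mean minus the control mean turned from 8.93 to -1.27 members, and 4 genes were under 0.05. With the exon class alone 10 genes were under 0.05, and 7 members had 1 region in every animal with a peak, against 13. Among males the difference was 1 member and -1.05 percentage points of share. Leaving out 1 animal gave 0 to 3 members, 32 to 85 genes and 1 to 4 member regions under 0.05, against 0, 27 and 1 with all animals. It also changes the group sizes and so the p-values that can be reached. Among the settings that leave out a treated animal, which have equal group sizes, the genes ran from 46 without S2 to 85 without S1. A replicate block over the 3 numbered pairs gave a mean difference of 7 members and 0.0414 percentage points. Same-numbered animals did not deviate together (correlations of 0.0632, -0.000132 and 0.0246), so the block describes a shared number only, and no call was made either way. Without ZNF768 the treated mean lay 8.63 members higher, against 8.93 with it. All other settings kept the treated mean of members above that of controls. Of the other values, 201 kept their side of the threshold, 6 came under 0.05 and 1 rose above it. The 6 were values of ZBTB16, ZBTB22 and ZNF471 with 1 animal left out, and the last was the ZBTB4 region with lists of equal length. With such lists ZNF471 and ZBTB16 had differences of 0 and 23.3 percentage points of animals. ZNF331, ZNF407, ZNF518B, ZNF608, ZNF641, ZNF658 and ZNF821, found in 2 animals, cannot come under 0.05 in any setting. With 1 animal left out the same held for ZNF710, and with a control left out for ZNF471 and ZNF512B. These parts of the 201 were thus fixed in advance and do not measure stability. The causes of these moves were not tested.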
